A study of Homo sapiens with 8 samples.

Results

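Collagens are the proteins whose genes carry symbols of the form COL, a number, A and a number. Each chain forms a triple helix with 2 others, and the trimers build fibrils, sheets or filaments outside the cell. Of the 60668 genes in the count files, of which 19934 are protein-coding, 44 protein-coding genes had such a symbol in GENCODE 29, and they lie on 17 chromosomes.

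RNA was sequenced from D283-OMO cells, a derivative of D283 Med, an established human medulloblastoma line. All cells of both groups carry a lentiviral transgene, selected with hygromycin, from which doxycycline (DOX) induces Flag-tagged OMOMYC. OMOMYC is a small dominant-negative mutant of MYC that blocks the action of MYC. The 4 OMO libraries are untreated cells, and the 4 OMO+DOX libraries are cells after 72 h of DOX. The study describes the replicates as independent biological replicates. No cells without the transgene received DOX here, so effects of DOX and of OMOMYC cannot be told apart. The labels name no batch, and a batch that followed the groups could not be told apart from them either.

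Collagen chains are made in the endoplasmic reticulum, where hydroxylases modify prolines and lysines and chaperones hold the folding trimer. After secretion, proteinases remove the ends of the fibril-forming chains and lysyl oxidases cross-link the fibrils. Fibrillar collagens (types I, II, III, V and XI among them) form the fibrils of connective tissue and cartilage, FACIT collagens sit on their surface, and type IV collagen forms the sheet of every basement membrane. In brain, fibrillar collagen is sparse, and type IV collagen lies mostly around vessels and under the pia. Neurons also make a few collagens, COL25A1 and COL19A1 among them.

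Libraries held between 38390696 and 54020506 counts. Levels are CPM, the counts of a gene per 1000000 counts of its library after TMM scaling in edgeR, as mean ± SD with n = 4 in each group. A count of 3, taken as the limit of detection for counting error, corresponded to between 0.0581 and 0.0748 CPM. MYC, from which OMOMYC derives, measured 939 ± 75.6 CPM in OMO and 1123 ± 56.8 CPM in OMO+DOX. Reads of the transgene may be counted with it, which was not examined. Of the MYC targets CAD and NCL, the first had a log2FC (OMO+DOX minus OMO) of -0.48 ± 0.045 and the second of -0.44 ± 0.041 (SE, edgeR FDR = 1.33e-06 and 1.23e-06). All 8 markers of Group 3 medulloblastoma passed the filter on low counts. At an adjusted p below 0.05, 6 fell, OTX2 and IMPG2 among them, and EYS and MYC rose. Of all genes past this filter, 38.1% fell and 38.5% rose at this threshold. Without MYC, the summed level of the markers ranged from 2957 to 3154 CPM in OMO and from 1219 to 1250.0 CPM in OMO+DOX. With MYC it ranged from 3918 to 4054 and from 2266 to 2426 CPM.

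Of the 44 collagens, 25 exceeded 1 CPM in 4 or more of the 8 libraries and were tested among 15222 genes. In OMO+DOX, 15 of them rose and 7 fell at an adjusted p below 0.05 (edgeR's quasi-likelihood test), while 38.5% of all tested genes rose and 38.1% fell at this threshold. The share of tested collagens called in either direction was 88%, beside 76.6% of all tested genes. At the stricter thresholds of the study, FDR below 0.001 with absolute log2FC above 2, COL6A1 and COL9A1 rose, and COL8A1, COL2A1, COL4A3 and COL4A4 fell. These calls covered 24% of the tested collagens beside 7.12% of all genes, of which 4.38% rose and 2.75% fell. The median log2FC was 0.88 over the tested collagens and 0.01 over all tested genes, and the median absolute log2FC was 1.45 and 0.43.

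In 21 of the 25 tested collagens no OMO+DOX library overlapped any OMO library, beside 71.7% of all tested genes. COL6A1, COL6A3 and COL8A1 exceeded 1 CPM in only one of the groups, so that they could enter the test only by way of the group where they were high. COL16A1, which passed the adjusted p of 0.05, and COL1A1, COL5A1 and COL9A3, which did not, were the 4 tested collagens whose groups overlapped. These RNA levels come from whole cultures, in which fewer cells that make a transcript and less RNA per cell cannot be told apart.

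**Figure D1:**
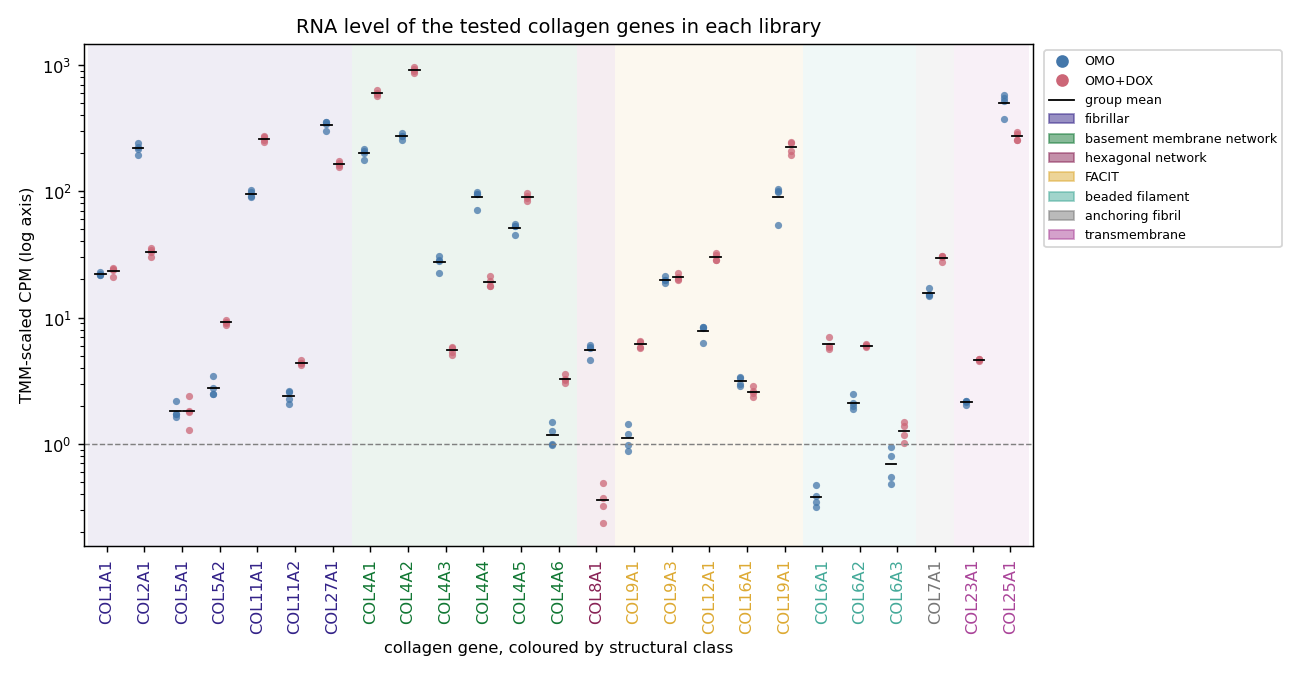
TMM-scaled CPM (log axis) of the 25 tested collagen genes, with 1 point per library, OMO in blue, OMO+DOX in red and black bars at the group means. Shading and label colours give the structural class, and the dashed line marks 1 CPM. COL4A1 and COL4A2 lie highest in OMO+DOX, while COL6A1 and COL6A3 lie below the line in OMO alone and COL8A1 in OMO+DOX alone.

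**Figure D2:**
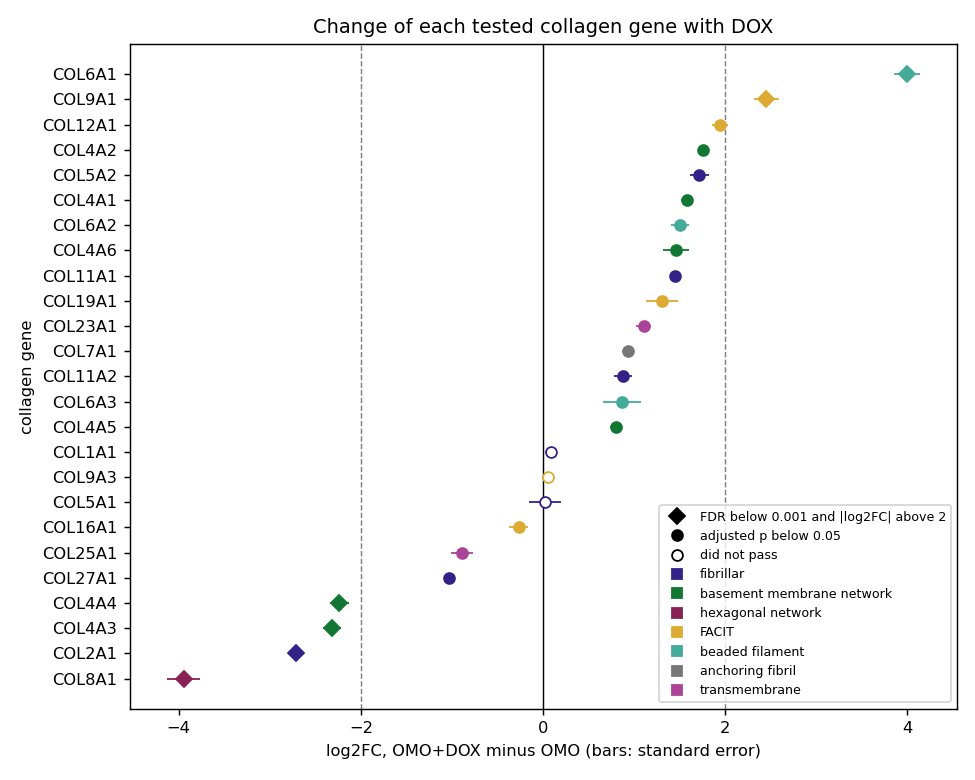
The log2FC of OMO+DOX against OMO for the same 25 genes, with bars for the standard error, dashed lines at an absolute log2FC of 2, diamonds for genes past both stricter thresholds, filled circles for an adjusted p below 0.05 and open circles for genes that did not pass. Values run from -3.94 for COL8A1 to 4.00 for COL6A1, with 15 genes called above 0 and 7 below.

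Genes were ranked by CPM per kilobase of their longest coding transcript, since longer transcripts give more reads. In OMO, COL25A1 ranked first with 62.7 ± 11.4 CPM per kilobase, followed by COL2A1 with 43.1 ± 3.89, COL27A1 with 43.1 ± 3.13, COL4A2 with 41.8 ± 2.15 and COL4A1 with 30.2 ± 2.42. COL2A1, COL27A1 and COL4A2 did not differ from each other beyond the spread between replicates. In OMO+DOX, COL4A2 led with 141 ± 6.75 CPM per kilobase and COL4A1 followed with 90.5 ± 3.87. Well below them and within each other's spread came COL19A1 with 35.6 ± 4.04, COL11A1 with 35.6 ± 1.77 and COL25A1 with 33.8 ± 2.70 CPM per kilobase. COL2A1, second in OMO, stood ninth in OMO+DOX with 6.57 ± 0.433 CPM per kilobase. The spacing of these levels depended on the length used. Divided by the length of all exons of the gene, a choice made after seeing the data, COL2A1, COL27A1 and COL4A2 kept their order in OMO but lay apart, at 32.8 ± 2.96, 24.0 ± 1.74 and 14.1 ± 0.723 CPM per kilobase. On that scale COL4A2 and COL4A1 led in OMO+DOX by less, with 47.4 ± 2.27 and 40.6 ± 1.74, and were followed by COL25A1 with 31.1 ± 2.48, COL11A1 with 28.7 ± 1.43 and COL19A1 with 26.1 ± 2.96 CPM per kilobase.

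Type IV collagen, the sheet-forming collagen of basement membranes, has 6 chains whose genes lie as 3 head-to-head pairs, and both members of each pair moved in the same direction. COL4A1 and COL4A2, whose chains form the trimer found in almost every basement membrane, rose together, as did COL4A5 and COL4A6. COL4A3 and COL4A4, which with COL4A5 form the trimer of the kidney filter, inner ear and lens, fell together. The gene bodies of COL4A1 (ENSG00000187498.16, chr13:110148963-110307233, minus strand, GRCh38) and COL4A2 (ENSG00000134871.19, chr13:110305812-110513209, plus strand) overlap by 1422 bases in GENCODE 29. Those of COL4A4 (ENSG00000081052.12, chr2:227002711-227164453, minus strand) and COL4A3 (ENSG00000169031.19, chr2:227164565-227314792, plus strand) leave 111 bases between them, and those of COL4A6 (ENSG00000197565.15, chrX:108155607-108439497, minus strand) and COL4A5 (ENSG00000188153.13, chrX:108439844-108697545, plus strand) leave 346 bases.

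The stretches between the last 2 pairs are shown because one lies between the genes that fell and the other between genes that rose. Both are read 5′ to 3′ on the plus strand of GRCh38 from RefSeq's promoter windows and hold no exon of the pair. The first is chr2:227164454-227164564, all 111 bases between COL4A4 and COL4A3. The second is chrX:108439588-108439837, the 250 bases before the RefSeq start of COL4A5, on the side of COL4A6. Capitals mark a GC box (GGGCGG) in the first and CCAAT boxes (CCAAT, and ATTGG for the other strand) in the second.
COL4A3/COL4A4: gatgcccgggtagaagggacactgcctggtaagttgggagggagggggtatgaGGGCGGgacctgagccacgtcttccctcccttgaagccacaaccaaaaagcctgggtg
COL4A5/COL4A6: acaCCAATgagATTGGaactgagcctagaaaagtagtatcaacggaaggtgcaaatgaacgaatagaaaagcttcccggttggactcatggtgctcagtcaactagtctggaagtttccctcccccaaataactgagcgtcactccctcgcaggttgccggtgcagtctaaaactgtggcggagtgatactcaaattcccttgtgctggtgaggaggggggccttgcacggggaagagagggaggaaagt
The bases that are G or C made up 61.3% of the first stretch and 51.2% of the second. Neither stretch holds the E-box CACGTG, the letters that MYC and its partner MAX are known to bind, or the TATA box TATAAA on either strand. The GC, CCAAT and TATA boxes were added to the search after the values had been seen. In RefSeq's promoter windows the GC box also stood for COL4A1, COL4A2 and COL4A6, which rose, and so was not limited to genes that fell. The CCAAT box stood in windows of COL4A1, COL4A2, COL4A5 and COL4A6. A part of these boxes in the changes was not tested.

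COL4A1 measured 199, 214, 178 and 209 CPM in OMO replicates 1 to 4 and 632, 598, 570.0 and 594 CPM in OMO+DOX replicates 1 to 4. COL4A2 measured 253, 287, 272 and 274 CPM in OMO and 967, 864, 898 and 931 CPM in OMO+DOX, the highest CPM of any collagen in every OMO+DOX library. Every OMO+DOX library lay above every OMO library for both genes. The log2FC was 1.58 ± 0.062 for COL4A1 and 1.75 ± 0.054 for COL4A2 (SE, edgeR FDR = 6.81e-10 and 7.88e-11), under the fold change threshold of the study.

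COL4A3 measured 27.8, 30.7, 22.3 and 28.6 CPM in the OMO replicates and 5.85, 5.73, 5.06 and 5.35 CPM in the OMO+DOX replicates. COL4A4 measured 95.1, 98.5, 71.2 and 94.6 CPM in OMO and 21.5, 19.3, 17.7 and 17.8 CPM in OMO+DOX. All OMO+DOX libraries lay below all OMO libraries, and OMO replicate 3 was the lowest of its group for both genes. The log2FC of COL4A3 was -2.32 ± 0.10 and that of COL4A4 -2.24 ± 0.10 (SE, edgeR FDR = 1.41e-09 and 2.83e-09).

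COL4A5 rose from 51.5 ± 4.34 to 89.7 ± 5.55 CPM, with a log2FC of 0.80 ± 0.068 (edgeR, FDR = 5.61e-07). COL4A6, whose chain joins that of COL4A5 in the basement membranes of skin and smooth muscle, rose from 1.18 ± 0.242 to 3.26 ± 0.216 CPM, with a log2FC of 1.46 ± 0.14 (edgeR, FDR = 1.69e-06). Thus all 6 chains passed an adjusted p of 0.05, 4 upward and 2 downward, and both chains that fell passed the stricter thresholds. Of all tested genes, 76.6% passed an adjusted p of 0.05, 38.5% upward and 38.1% downward, and 7.12% passed the stricter thresholds.

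Among the 11 fibrillar collagens, 7 were tested, of which COL11A1, COL11A2 and COL5A2 rose, COL2A1 and COL27A1 fell, and COL1A1 and COL5A1 did not pass. The share called was 71.4%, beside 76.6% of all tested genes. COL2A1 (ENSG00000139219.19, chr12:47972965-48004554, minus strand), the main collagen of cartilage fibrils and of the vitreous of the eye, measured 193, 226, 239.8 and 215 CPM in the OMO replicates and 34.1, 30.4, 33.1 and 35.6 CPM in the OMO+DOX replicates. The groups were 6.56-fold apart and did not overlap (log2FC -2.71 ± 0.075, edgeR FDR = 3.61e-11). COL11A1 (ENSG00000060718.22, chr1:102876467-103108872, minus strand), whose chain is built into type II fibrils and limits their width, measured 92.3, 102, 90.1 and 97.8 CPM in OMO and 275, 256, 267 and 246 CPM in OMO+DOX. It thus rose while COL2A1 fell, without overlap between the groups (log2FC 1.45 ± 0.055, edgeR FDR = 5.24e-10).

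COL27A1 (ENSG00000196739.15, chr9:114155560-114312511, plus strand), a fibrillar collagen of growing cartilage, measured 352, 339.8, 299.9 and 351 CPM in OMO and 173, 169, 156 and 161 CPM in OMO+DOX. All OMO+DOX libraries were lower (log2FC -1.03 ± 0.061, edgeR FDR = 2.23e-08). COL5A2, a chain of the type V collagen that starts fibrils of type I, rose from 2.79 ± 0.465 to 9.15 ± 0.349 CPM (log2FC 1.72 ± 0.11, edgeR FDR = 3.35e-08). Its partner COL5A1 measured 1.81 ± 0.241 CPM in OMO and 1.83 ± 0.454 CPM in OMO+DOX, with a log2FC of 0.020 ± 0.17 (edgeR, FDR = 0.922). COL11A2 rose from 2.39 ± 0.270 to 4.38 ± 0.145 CPM (log2FC 0.88 ± 0.10, edgeR FDR = 7.22e-06). COL1A1, a chain of type I collagen, measured 22.1 ± 0.613 CPM in OMO and 23.4 ± 1.81 CPM in OMO+DOX (log2FC 0.085 ± 0.060, edgeR FDR = 0.211), while its partner chain COL1A2 was not tested, with 0.223 CPM in OMO and 0.0110 CPM in OMO+DOX. With library size only in place of TMM, COL1A1 passed (log2FC 0.21, edgeR FDR = 0.00539).

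Of the 10 FACIT collagens, which bind to the surface of fibrils or lie in basement membrane zones, 5 were tested. Of these, 3 rose and 1 fell, beside 38.5% and 38.1% of all tested genes. COL9A1 (ENSG00000112280.16, chr6:70215061-70303083, minus strand), which decorates type II fibrils in cartilage and vitreous, measured 1.204, 0.871, 0.976 and 1.43 CPM in OMO and 5.84, 6.53, 5.79 and 6.36 CPM in OMO+DOX. The OMO+DOX libraries held 5.47 times the OMO level and did not overlap with OMO (log2FC 2.45 ± 0.14, edgeR FDR = 1.36e-08). COL9A3, a chain of the same trimer, measured 19.98 ± 1.06 CPM in OMO and 20.8 ± 1.199 CPM in OMO+DOX and did not pass (log2FC 0.057 ± 0.058, edgeR FDR = 0.385), except with library size only, where its log2FC was 0.18 (edgeR, FDR = 0.00896).

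COL19A1 (ENSG00000082293.13, chr6:69866571-70209976, plus strand), which interneurons make and which takes part in forming inhibitory synapses, measured 105, 99.4, 53.8 and 100.02 CPM in OMO and 243, 243, 209 and 193 CPM in OMO+DOX. OMO replicate 3 stood apart from the other OMO libraries, and all OMO+DOX libraries lay above all OMO libraries (log2FC 1.31 ± 0.18, edgeR FDR = 3.05e-05). Without OMO replicate 3 its log2FC was 1.13. COL12A1, which binds fibrils of type I collagen in tendon and skin, rose from 7.83 ± 1.03 to 30.1 ± 1.89 CPM, and its log2FC of 1.95 ± 0.090 lay just under the threshold of 2 (edgeR, FDR = 2.51e-09). With library size only, COL12A1 passed that threshold as well, which raised the collagens above it to 3. COL16A1 fell from 3.13 ± 0.264 to 2.59 ± 0.207 CPM (log2FC -0.27 ± 0.10, edgeR FDR = 0.0331), a call that was lost in 9 of its 14 alternative fits.

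The 3 tested chains of type VI collagen, which forms beaded filaments around many cells, all rose, beside 38.5% of all tested genes. COL6A1 and COL6A3 exceeded 1 CPM in OMO+DOX alone and entered the test by way of that group. Their rise can therefore not be weighed against that share. COL6A1 (ENSG00000142156.14, chr21:45981737-46005050, plus strand) measured 0.469, 0.348, 0.386 and 0.314 CPM in OMO and 5.66, 5.86, 5.96 and 7.02 CPM in OMO+DOX, from 14 to 23 counts in the first group and 235 to 319 in the second. It had the highest log2FC of the 25 tested collagens, 4.00 ± 0.14 (SE, edgeR FDR = 2.44e-10), and the groups did not overlap. COL6A2 rose from 2.11 ± 0.255 to 5.98 ± 0.151 CPM (log2FC 1.502 ± 0.10, edgeR FDR = 5.24e-08). COL6A3, the longest chain of the trimer, rose from 0.692 ± 0.213 to 1.26 ± 0.203 CPM (log2FC 0.87 ± 0.21, edgeR FDR = 0.00287), close to the limit of 1 CPM in both groups.

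COL8A1 (ENSG00000144810.16, chr3:99638475-99799226, plus strand), which forms hexagonal sheets under the corneal and vascular endothelium, measured 5.88, 5.69, 4.57 and 6.01 CPM in OMO and 0.493, 0.324, 0.235 and 0.374 CPM in OMO+DOX, from 225 to 294 and 12 to 25 counts. Its log2FC of -3.94 ± 0.18 was the lowest of the tested collagens (SE, edgeR FDR = 2.28e-09), and the groups lay 15.5-fold apart without overlap. COL8A1 exceeded 1 CPM in OMO alone and entered the test by way of that group. COL7A1, the collagen of the anchoring fibrils that hold the epidermis to the dermis, rose from 15.5 ± 1.12 to 29.7 ± 1.52 CPM (log2FC 0.93 ± 0.062, edgeR FDR = 6.09e-08).

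Of the 4 collagens that span the cell membrane, 2 were tested and moved in opposite directions. COL25A1 (ENSG00000188517.16, chr4:108808725-109302752, minus strand), a collagen of neurons whose shed outer part binds amyloid and which motor axons need to innervate muscle, measured 576, 517, 371 and 549 CPM in OMO and 282, 297, 255 and 252 CPM in OMO+DOX. All OMO+DOX libraries were lower than all OMO libraries, of which OMO replicate 3 was the lowest (log2FC -0.89 ± 0.12, edgeR FDR = 2.70e-05). COL23A1 rose from 2.14 ± 0.0713 to 4.62 ± 0.0887 CPM (log2FC 1.11 ± 0.082, edgeR FDR = 1.70e-07).

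The remaining 19 collagens did not pass the filter on low counts and were not tested, and their values are given without a test. COL13A1, COL17A1 and COL20A1 held at most 3 counts in every library. COL24A1, a fibrillar collagen of bone, held 0 to 2 counts in the OMO libraries and 20 to 28 in the OMO+DOX libraries. COL3A1, the chain of type III collagen of vessel walls and soft tissue, held 0 to 1 counts in OMO and 13 to 18 in OMO+DOX. COL1A2 went the other way, with 7 to 15 counts in OMO and 0 to 2 in OMO+DOX. COL21A1, a FACIT collagen, held 1 to 6 counts in OMO and 32 to 42 in OMO+DOX.

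In COL6A5, a further chain of type VI, counts ranged from 2 to 6 in OMO and from 7 to 17 in OMO+DOX. COL8A2, the partner of COL8A1, measured 0.613 ± 0.174 CPM in OMO and 1.08 ± 0.135 CPM in OMO+DOX, without overlap and in the direction opposite to COL8A1. COL1A2, COL3A1, COL6A5, COL8A2, COL21A1 and COL24A1 were the 6 of these 19 collagens whose groups did not overlap. They are 6 of the 16 that held more than 3 counts in some library, beside 29.4% of all untested genes with as many counts.

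The other untested collagens overlapped between the groups. COL18A1, which carries the fragment endostatin and lies in basement membranes of vessels and eye, measured 0.8295 ± 0.229 CPM in OMO and 0.855 ± 0.167 CPM in OMO+DOX, and 16.4% of its exon bases lie in exons of SLC19A1 on the opposite strand. COL15A1, its relative, measured 0.0779 and 0.0781 CPM. COL9A2, the remaining chain of type IX, measured 0.272 CPM in OMO and 0.487 CPM in OMO+DOX. COL26A1 measured 0.559 and 0.462 CPM, and COL28A1 0.266 and 0.406 CPM.

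COL14A1, a FACIT collagen of tendon and skin, measured 0.376 CPM in OMO and 0.282 CPM in OMO+DOX, and COL22A1, which marks tissue junctions, measured 0.300 and 0.370 CPM. COL10A1, the collagen of hypertrophic cartilage, measured 0.0372 and 0.0602 CPM. COL6A6 measured 0.0614 and 0.0781 CPM, and COL5A3 0.0107 and 0.0564 CPM. In none of these genes did the libraries of the groups separate. Of the 3 at the limit of detection throughout, COL13A1 of the neuromuscular junction measured 0 and 0.0236 CPM, COL17A1 of the hemidesmosome 0.0102 and 0.0320 CPM, and COL20A1 0.0158 and 0.0245 CPM.

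Since chains join into trimers of fixed make-up, the ratio of counts between partner chains was computed within each library for a list of 12 pairs, of which 8 had both chains tested. Such a ratio needs no scaling between libraries, and its change between the groups does not depend on transcript length. Groups did not overlap in 6 of the 8 pairs, which had the smallest p that 70 divisions of the libraries allow (two-sided exact permutation test, p = 0.0286, adjusted p = 0.0381 over the 8 pairs). Both pairs with COL6A1 hold a gene that entered the test by way of OMO+DOX alone. The change of COL11A1 against COL2A1 followed from their opposite calls. No share over other pairs of tested genes was computed, so the count of pairs is given as a description. Taken singly, 71.7% of all tested genes did not overlap between the groups.

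The log2 ratio of COL11A1 to COL2A1 was -1.06, -1.15, -1.41 and -1.14 in OMO and 3.01, 3.07, 3.01 and 2.79 in OMO+DOX, a difference of 4.16 ± 0.10 (SE). Counts of COL2A1 were thus above those of COL11A1 in every OMO library and below them in every OMO+DOX library. The log2 ratio of COL6A1 to COL6A2 went from -2.37, -2.55, -2.34 and -2.54 in OMO to -0.11, -0.012, 0.038 and 0.20 in OMO+DOX, a difference of 2.48 ± 0.085. The log2 ratio of COL6A3 to COL6A1 changed by -3.09 ± 0.27, so COL6A1 did not rise in proportion to COL6A2 and COL6A3. COL6A1 and COL6A3 exceeded 1 CPM in OMO+DOX alone and were tested by way of that group. As COL11A1 rose and COL2A1 fell, a change in their ratio followed from those calls.

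COL5A1 against COL5A2 changed by -1.74 ± 0.25, and COL4A5 against COL4A6 by -0.68 ± 0.13. For COL11A1 against COL11A2 the difference was 0.57 ± 0.093. Of the 3 head-to-head pairs of type IV, COL4A1 with COL4A2 and COL4A3 with COL4A4 had ratios that overlapped between the groups. The log2 ratio of COL4A1 to COL4A2 differed by -0.17 ± 0.064 (exact permutation p = 0.0571, adjusted p = 0.0653), and that of COL4A3 to COL4A4 by -0.077 ± 0.040 (exact permutation p = 0.114, adjusted p = 0.114).

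The list left out some partner chains that were both tested, and 4 such pairs were added after the values had been seen and are given without a test. The log2 ratio of COL9A1 to COL9A3 differed by 2.41 ± 0.17, without overlap between the groups. For COL4A3 and COL4A4 against COL4A5, the third chain of their trimer, the differences were -3.11 ± 0.052 and -3.03 ± 0.055, also without overlap. COL6A2 against COL6A3 differed by 0.61 ± 0.26, with overlap.

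**Figure D3:**
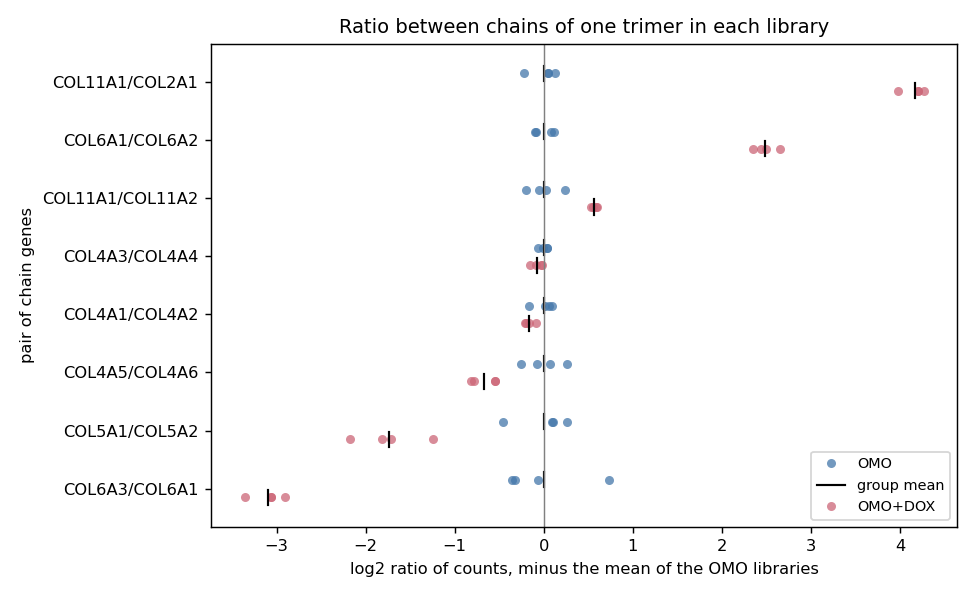
The log2 ratio of counts between partner chains in each library, minus the mean of the 4 OMO libraries, for the 8 listed pairs with both chains tested. OMO is blue, OMO+DOX red, and vertical bars mark group means. COL11A1/COL2A1 lies farthest to the right and COL6A3/COL6A1 farthest to the left in OMO+DOX, while the ratios of COL4A1/COL4A2 and COL4A3/COL4A4 overlap between the groups.

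The summed level of the 44 collagens was 2039, 2061, 1736 and 2065 CPM in OMO replicates 1 to 4 and 2887, 2728, 2655 and 2674 CPM in OMO+DOX replicates 1 to 4. The ratio of the group means was 1.39, and the sum is given as a description without a test. COL4A1 and COL4A2 together made up 23.9% ± 1.57 of it in OMO and 55.3% ± 1.39 in OMO+DOX (SD, n = 4), from 472 ± 25.0 and 1513 ± 63.4 CPM. The sum of all other collagens went from 1504 ± 145 to 1223 ± 65.3 CPM. Without COL4A2 alone, the ratio of the sums was 1.07.

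**Figure D4:**
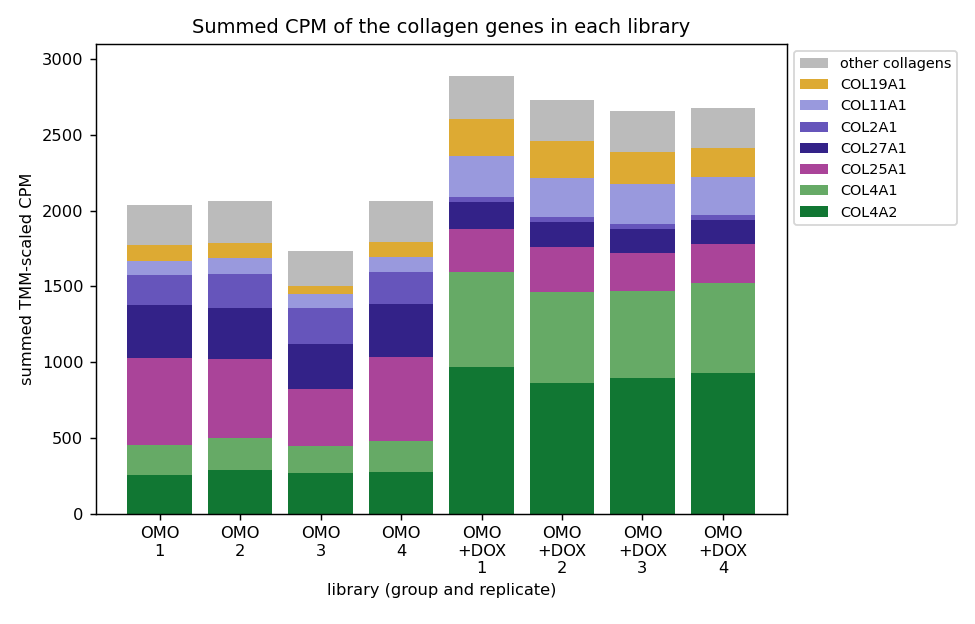
Summed TMM-scaled CPM of the 44 collagen genes in each of the 8 libraries, with the 7 genes that rank in the top 5 per kilobase in either group shown as separate segments and all others in grey. The green segments for COL4A1 and COL4A2 grow from 23.9% of the column on average in OMO to 55.3% in OMO+DOX, while the segments for COL25A1, COL27A1 and COL2A1 shrink.

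By position, 10 pairs of collagens lie within 1 Mb of each other. In the 5 of these pairs with both genes tested, both passed an adjusted p of 0.05 in the same direction. So did 29.7% of all pairs of tested genes within 1 Mb. These 5 pairs lie at most 93046 bases apart, and no share was computed over pairs that close. Besides the type IV pairs these included COL6A1 and COL6A2, with 93046 bases between them on chromosome 21. COL6A1 exceeded 1 CPM in OMO+DOX alone and entered the test by way of that group. The last pair was COL9A1 and COL19A1, which lie tail to tail with 5084 bases between them on chromosome 6. Of COL3A1 and COL5A2, tail to tail on chromosome 2 with 19149 bases between them, only the second was tested, and both had their higher values in OMO+DOX.

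RefSeq promoter windows, each from 250 bases before to 50 bases after a start on GRCh38, were at hand for 32 of the 44 collagens, in 44 windows since some genes have more than one start. None was at hand for COL1A1, COL1A2, COL2A1, COL3A1, COL5A2, COL6A1, COL6A5, COL8A1, COL9A3, COL14A1, COL20A1 and COL22A1. The E-box CACGTG was in 0 of the 44 windows, beside 7.26% of all 35116 windows. The CCAAT box stood on either strand in 31.8% of the collagen windows and 34.6% of all windows. Windows of head-to-head genes share bases, so these counts are not independent. The GC box stood in 54.5% and 45.0%, and the TATA box in 18.2% and 11.5%. Of the 18 windows of collagens that rose and the 5 of those that fell, 8 and 1 held the CCAAT box, 10 and 3 the GC box and 2 and 0 the TATA box. A match describes letters in the window and not a site in use.

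Of 36 genes for making, secreting and cross-linking collagen, 32 were tested, and all 32 passed an adjusted p of 0.05, 17 upward and 15 downward, with a median log2FC of 0.24. The share called was thus 100% beside 76.6% of all tested genes, and the share past the stricter thresholds was 9.38% beside 7.12%. LOXL4, a lysyl oxidase, rose most, from 5.50 ± 0.695 to 42.6 ± 1.88 CPM (log2FC 2.95 ± 0.080, edgeR FDR = 2.90e-11). Of its relatives, LOXL3 rose with a log2FC of 0.93, and LOX, LOXL1 and LOXL2 fell with -0.99, -0.85 and -1.30. Next after LOXL4 came ADAMTS3, a procollagen N-proteinase, with a log2FC of 1.55, the prolyl 3-hydroxylase P3H2 with 1.52, and FKBP14, a folding enzyme, with 1.28.

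SEC24D, a coat protein of the vesicles that carry procollagen out of the endoplasmic reticulum, fell from 3.60 ± 0.546 to 0.591 ± 0.126 CPM (log2FC -2.61 ± 0.17, edgeR FDR = 5.60e-08). ADAMTS14, another procollagen N-proteinase, fell from 1.85 ± 0.331 to 0.363 ± 0.0653 CPM (log2FC -2.34 ± 0.19, edgeR FDR = 3.46e-07), and P3H3 fell with a log2FC of -1.35. SEC24D and ADAMTS14 exceeded 1 CPM in OMO alone and entered the test by way of that group. SERPINH1, the collagen chaperone HSP47, fell from 267 ± 16.0 to 125 ± 9.86 CPM (log2FC -1.09 ± 0.064, edgeR FDR = 2.21e-08). P4HA1, a catalytic subunit of prolyl 4-hydroxylase, rose with a log2FC of 0.56, while another, P4HA2, fell with -0.17, as did their partner subunit P4HB with -1.06. PLOD1, a lysyl hydroxylase, rose with a log2FC of 0.91.

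Of 20 genes that bind, take up or break down collagen, 12 were tested, 10 rose, none fell and 2 did not pass, with a median log2FC of 0.66. The share called in either direction, 83.3%, lay beside 76.6% of all tested genes, of which 38.5% rose and 38.1% fell. Beside the 0 that fell by edgeR at an adjusted p below 0.05, MMP14 had a log2FC of -0.10 ± 0.048 (FDR = 0.0682) and passed without OMO replicate 1, which gave 1 that fell. ITGA1, whose integrin binds type IV collagen, rose from 9.79 ± 1.26 to 68.8 ± 4.74 CPM (log2FC 2.81 ± 0.090, edgeR FDR = 1.18e-10). It was followed by the collagenase MMP1 with a log2FC of 1.62, ITGA2 with 1.38 and ITGA10 with 1.10, the last at 0.683 and 1.45 CPM. DDR1, a receptor tyrosine kinase that collagen activates, rose from 26.4 ± 1.27 to 41.3 ± 2.44 CPM (log2FC 0.64 ± 0.056, edgeR FDR = 7.31e-07). MRC2, which takes up collagen fragments, measured 210.4 ± 5.18 and 214 ± 10.4 CPM and did not pass (log2FC 0.023 ± 0.047, edgeR FDR = 0.663).

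**Figure D5:**
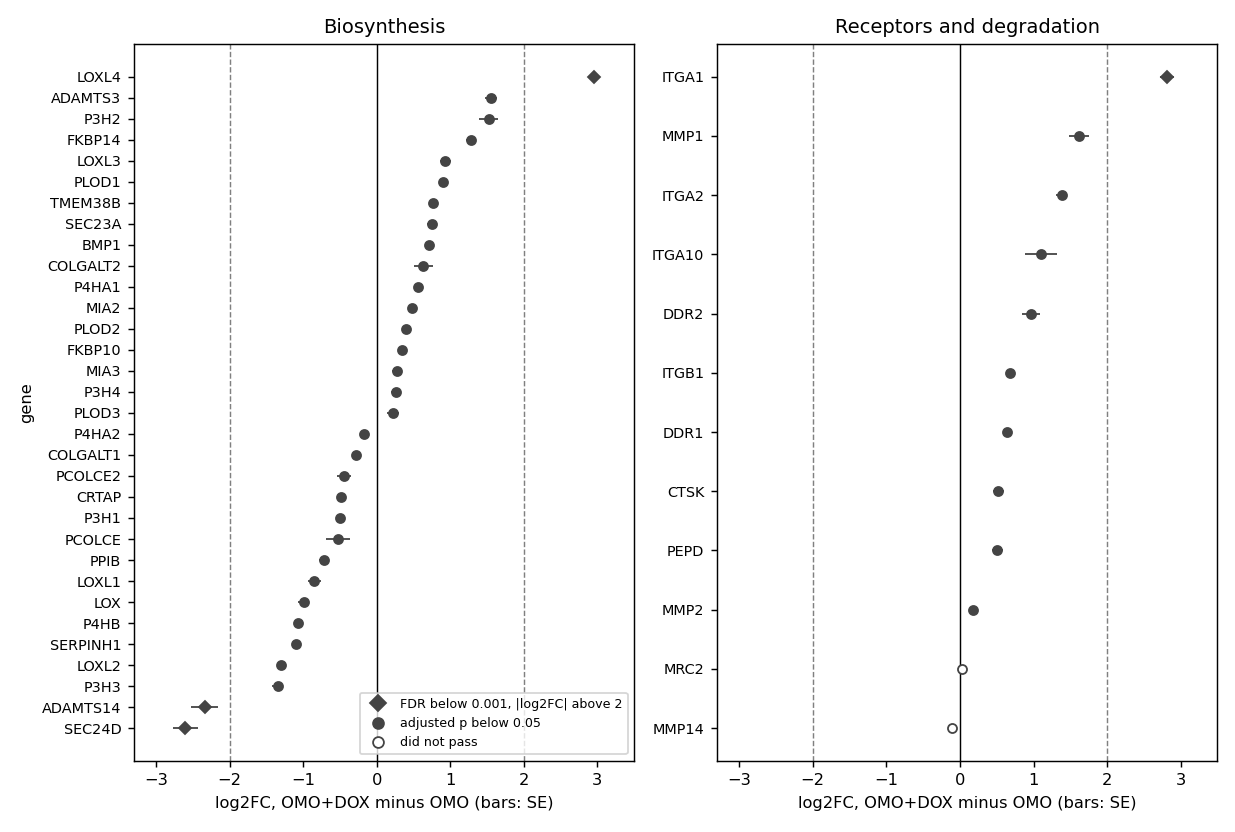
The log2FC of OMO+DOX against OMO for the 32 tested genes of collagen biosynthesis (left) and the 12 tested genes of collagen receptors and degradation (right), with bars for the standard error and symbols as in the plot of collagen log2FC. On the left 17 genes lie above 0 and 15 below, from SEC24D at -2.61 to LOXL4 at 2.95, and on the right 10 passed above 0 and none below.

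Markers of other cell types that make collagen were measured beside these results. Of 10 fibroblast and mural markers, 4 were tested and POSTN and TCF21 held at most 3 counts in every library, while the summed level ranged from 28.4 to 30.9 CPM in OMO and from 67.9 to 75.3 CPM in OMO+DOX. Most of this sum was PDGFRB (13.5 ± 0.466 and 40.4 ± 4.48 CPM) and RGS5 (12.1 ± 0.582 and 25.0 ± 1.77 CPM). All 4 tested markers rose at an adjusted p below 0.05 (edgeR), beside 38.5% of all tested genes. Besides PDGFRB and RGS5 these were PDGFRA (1.17 and 1.69 CPM) and ACTA2 (2.07 and 4.56 CPM). The fibroblast genes DCN and LUM, not tested, were lower in OMO+DOX on average, DCN at 0.601 and 0.0117 CPM without overlap and LUM at 0.0965 and 0.0173 CPM with overlap. Of the untested THY1 and FAP, the first was lower (0.0461 and 0.0111 CPM) and the second higher (0.0255 and 0.0982 CPM), both with overlap.

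Of 6 endothelial markers, 3 were tested, and PECAM1 and TEK held at most 3 counts throughout. The endothelial sum ranged from 3.58 to 4.49 CPM in OMO and from 5.56 to 6.37 CPM in OMO+DOX, with CDH5 at 0 in every OMO library and at 1.85 ± 0.237 CPM in OMO+DOX. KDR, like CDH5 above 1 CPM in OMO+DOX alone, rose as well (log2FC 2.98), while VWF fell from 3.26 ± 0.332 to 1.24 ± 0.184 CPM (log2FC -1.39 ± 0.13, edgeR FDR = 1.42e-06) and CLDN5, not tested, measured 0.449 and 0.114 CPM.

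Of 7 chondrocyte markers, 2 were tested, and HAPLN1 and CNMD held at most 3 counts throughout. The sum ranged from 86.5 to 102 CPM in OMO and from 13.8 to 16.2 CPM in OMO+DOX. Most of it was SOX9, which fell from 90.6 ± 7.29 to 12.2 ± 0.831 CPM (log2FC -2.90 ± 0.072, edgeR FDR = 1.52e-11). The other tested marker, MATN3, measured 1.27 ± 0.154 and 1.27 ± 0.0947 CPM and did not pass (edgeR, FDR = 0.968), and the untested CHAD and MATN1 had higher values in OMO+DOX, at 0.443 and 1.02 CPM and at 0.0530 and 0.457 CPM. None of 4 immune markers was tested, and their sum ranged from 0.634 to 0.810 CPM in OMO and from 1.11 to 1.44 CPM in OMO+DOX. The part of these markers in the collagen changes was not tested.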

How the data were processed

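The authors sequenced polyA+ RNA in pairs from a stranded kit. They used Trim Galore for trimming, STAR for alignment to GENCODE 32 (GRCh38) and RSEM for counting. They deposited RSEM expected counts per gene, 1 library per file, without normalization. Whether counting used the strand is not stated, and RSEM divides reads that fit several genes, which left values that are not whole in 4 collagens (COL4A3, COL9A3, COL18A1 and COL19A1). Symbols, coordinates and lengths come from GENCODE 29, of the same build, in which 96.5% of the gene identifiers were found.

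Counts were rounded, and genes that exceeded 1 CPM in 4 or more of 8 libraries were tested with edgeR 4.0.16 in R 4.3.3 (TMM, quasi-likelihood test, Benjamini-Hochberg adjustment over 15222 genes, two-sided, no covariates). Differential expression means FDR below 0.001 with absolute log2FC above 2, as in the study's methods. The SE is the absolute log2FC over the square root of F. Ratios of chains used log2 of counts plus 0.5 and exact permutation tests over 70 divisions. The fits were tested on simulated data. Python 3.11.15, numpy 2.4.6, pandas 2.3.3, scipy 1.17.1 and matplotlib 3.10.9 served for other steps.

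Samples were grouped by their titles. The members, the lists of related genes and the markers were chosen with earlier results of these data known. Every collagen is named. Values per library are given for collagens that were differentially expressed or among the 5 highest per kilobase in either group, and the 4 largest changes in each direction are named from the lists, with SERPINH1, P4HA1, PLOD1, LOX and DDR1. LOXL1, LOXL3, P4HA2, P4HB, MRC2 and MMP14 were added after their values were seen. The alternatives were DESeq2 size factors, library size only, the Wald test of DESeq2 1.42.0, other filters and thresholds, a replicate block, another added count for ratios, and each library left out in turn.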

Additional observations from a re-analysis of the deposited data

Results flagged for a closer look

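In 4 of the 68 sets of 4 libraries examined, 1 library stood apart from the other 3 by Dixon's criterion, where chance alone gives about 1 in 20, or 3.4 sets. All 4 concern OMO replicate 3. Its COL12A1 level was 6.28 CPM, beside 8.26, 8.36 and 8.40 CPM in OMO replicates 1, 2 and 4. Its COL19A1 level was 53.8 CPM beside 105, 99.4 and 100.02 CPM, and its COL4A4 level was 71.2 CPM beside 95.1, 98.5 and 94.6 CPM. The summed collagen level of this library was 1736 CPM, beside 2039, 2061 and 2065 CPM. Without OMO replicate 3, the log2FC was 1.85 for COL12A1, 1.13 for COL19A1 and -2.34 for COL4A4 (edgeR, FDR = 4.65e-12, 5.45e-09 and 3.08e-13), and the ratio of the summed levels was 1.33 in place of 1.39. The counts of collagens past each threshold were the same without this library. What set it apart was not tested.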

How the results depend on the processing

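Of 347 refits of single collagens, 330 kept the direction and the side of an adjusted p of 0.05. COL5A1, which did not pass, changed sign in 5 of them: its log2FC was -0.0084 without a filter on low counts, -0.01 without OMO replicate 1, -0.0113 without OMO replicate 3, -0.0339 without OMO replicate 4 and -0.14 without OMO+DOX replicate 1, and with a library left out it ranged from -0.14 to 0.14. COL16A1 lost its call in 9 of 14 refits, library size only among them (log2FC -0.14; edgeR, FDR = 0.237), as well as the DESeq2 Wald test (adjusted p = 0.0549). It lost it without OMO replicate 1 or 4 or OMO+DOX replicate 1, 2 or 4 as well, and over these its log2FC ranged from -0.27 to -0.23. COL1A1 gained a call without OMO+DOX replicate 2 (log2FC 0.14; edgeR, FDR = 0.0205).

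Without a filter on low counts, 5 collagens rose past the stricter thresholds in place of 2, COL3A1, COL21A1 and COL24A1 being added. COL1A2 was added to those that fell. All 44 collagens were then tested among 36881 genes. Of these genes, 1328 rose and 769 fell past the same thresholds, in place of 666 and 418 of 15222. With more than 1 CPM asked of more than 4 libraries, 22 collagens were tested, and 1 rose and 3 fell past these thresholds. COL6A1 and COL8A1 were then untested, as was COL6A3. Of all 14301 genes tested under that filter, 313 rose and 249 fell past these thresholds. Library size only moved the median log2FC of all genes to 0.14 and the counts at an adjusted p of 0.05 to 7157 that rose and 4715 that fell, from 5868 and 5793, and COL1A1, COL9A3 and COL12A1 crossed a threshold under it. The ratio of summed collagen levels was 1.51 with library size only and 1.07 without COL4A2. Leaving out a library gave between 0 and 1 genes of the receptor and degradation list that fell, MMP14 without OMO replicate 1. Counts of collagens past an adjusted p of 0.05 ranged from 15 to 16 upward and from 6 to 7 downward with a library left out.

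Deviations of same-numbered libraries from their group means correlated with r of 0.16, 0.14, 0.24 and -0.18 for replicates 1 to 4, so the numbers were not taken to pair the samples, and not every library correlated best with its own number. With the replicate block, 15 collagens rose and 6 fell at an adjusted p below 0.05, COL16A1 being lost (adjusted p = 0.0532), and no other collagen call changed. With 4 libraries per group, differences near the spread between replicates and genes within a few counts of the limit of detection could not be resolved.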

Other observations

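Genes of both lists that did not pass the filter on low counts were not tested, and their values are given here. Among those for making collagen, TLL1, a procollagen C-proteinase, ranged from 0.549 to 1.10 CPM in OMO and from 0 to 0.199 CPM in OMO+DOX. P4HA3 measured 0.0506 ± 0.0251 and 0.179 ± 0.0393 CPM, ADAMTS2 0.231 ± 0.0250 and 0.338 ± 0.0552 CPM, and TLL2 0.135 ± 0.0349 and 0.147 ± 0.0365 CPM (SD, n = 4).

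Among the receptors, ITGA11, whose integrin binds fibrillar collagen, ranged from 0.0813 to 0.194 CPM in OMO and from 0.815 to 1.12 CPM in OMO+DOX. OSCAR, an immune receptor for collagen, ranged from 0.0407 to 0.0968 CPM in OMO and from 0.469 to 0.598 CPM in OMO+DOX. ADGRG1, a receptor for type III collagen in the developing cortex, ranged from 0.0448 to 0.102 and from 0.132 to 0.199 CPM, with at most 10 counts. The groups of these 3 genes did not overlap, nor did those of TLL1, P4HA3 and ADAMTS2. TLL2 and MMP9, the only other untested genes of the lists with more than 3 counts in some library, overlapped between the groups. Of all untested genes with more than 3 counts in some library, 29.4% did not overlap. MMP9 measured 0.168 ± 0.0149 and 0.349 ± 0.146 CPM. GP6, LAIR1, MMP8 and MMP13 held at most 3 counts in every library.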
